A study of Mus musculus with 18 samples.

Results

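The genes described here are the ADAMTS proteases and ADAMTS-like proteins, the matrix metalloproteinases and their TIMP inhibitors, in the embryonic mouse spinal cord. They were taken from the authors' coexpression table by symbol alone: every gene named Adamts or Adamtsl, every Mmp with a number, and Timp1 to Timp4. The rule found 51 of the 23861 genes with a name, namely 19 Adamts, 5 Adamtsl, 23 Mmp and 4 Timp genes, and each had 1 probe set. RNA came from spinal cords of Aldh1l1-GFP transgenic embryos on a Swiss-Webster background, in which green fluorescent protein follows the promoter of the astrocyte enzyme gene Aldh1l1. Cords were dissociated with papain, and flow-sorted GFP-positive cells (GFP cells) were compared with whole, which the titles call all live sorted cells and another label text describes as GFP-negative. For the GFP sort there were 3 arrays from E13.5, 2 from E14.5 and 3 from a late age, made of 2 arrays from E17.5 and 1 from E18.5. Whole was covered by 3 arrays per age, with the late age made up alike. The array whose title calls it mislabeled was left out.

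These enzymes cut proteins outside the cell. ADAMTS proteases are secreted and trim procollagens, proteoglycans such as versican and brevican, reelin and von Willebrand factor, while the ADAMTS-like proteins share their binding modules and lack the protease domain. Matrix metalloproteinases degrade collagens, gelatins and many other matrix and surface proteins, and some of them are tethered to the cell membrane. TIMPs bind to the active sites and block them, and the tethered enzyme Mmp14, with Timp2 as a bridge, also activates secreted pro-Mmp2. In the developing cord, such proteolysis remodels the matrix through which neurons, axons and vessels grow.

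The 17 arrays carried similar overall signal, with medians over all genes of 7.73 to 7.82 log2, and arrays of 1 group correlated at 0.985 to 0.994. Of 9 Aldh1l1 lineage and astrocyte markers 6, 7 and 8 were higher in GFP cells at E13.5, E14.5 and late and 0 were lower, and of 8 neuronal markers 8 were lower at each age. All values are log2 levels of a probe set, so levels were compared between samples and never between genes. Differences were tested with limma on all 17 arrays together, and a gene is called when its p, adjusted by Benjamini-Hochberg over the 23861 genes, is below 0.05. Values after ± are limma's standard errors. The labels say biological replicate without naming litters, so the tests measure the spread between these samples. If whole holds the GFP cells, as its title says, a ratio of GFP cells to whole understates the contrast with GFP-negative cells. In a bulk sample, fewer cells of a type and less RNA per cell cannot be told apart.

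Of the 51 genes 18 (35.3%) were called in at least 1 of 8 comparisons and 33 in none, and of all genes 39.3% were called in at least 1. Of those 33, 29 were dim, meaning that their mean over the 17 arrays lay under that of the median gene, against 4 of the 18 called. The 4 dim genes that were called were Adamts3, Adamts6, Adamts17 and Mmp24. At E13.5 the GFP cells held 9 of the 51 genes higher than whole, where 11.1% of all genes were called higher, and 3 lower, where 8.01% were. At E14.5 9 were higher (10.3% of all genes) and 4 lower (8.22%). At the late age 5 were higher (4.6%) and 1 lower (4.68%). As shares of the 51, the calls came to 23.5%, 25.5% and 11.8%, a little above those of all genes. The median difference of the 51 (-0.05, 0.00 and 0.04) was close to that of all genes (-0.04, -0.03 and 0.04). Timp3, Timp4, Adamts6, Adamts12 and Mmp14 were higher in GFP cells at every age, 5 of 51, where 2.65% of all genes were. Mmp16 was lower at every age, 1 of 51, where 2.26% of all genes were.

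**Figure D1:**
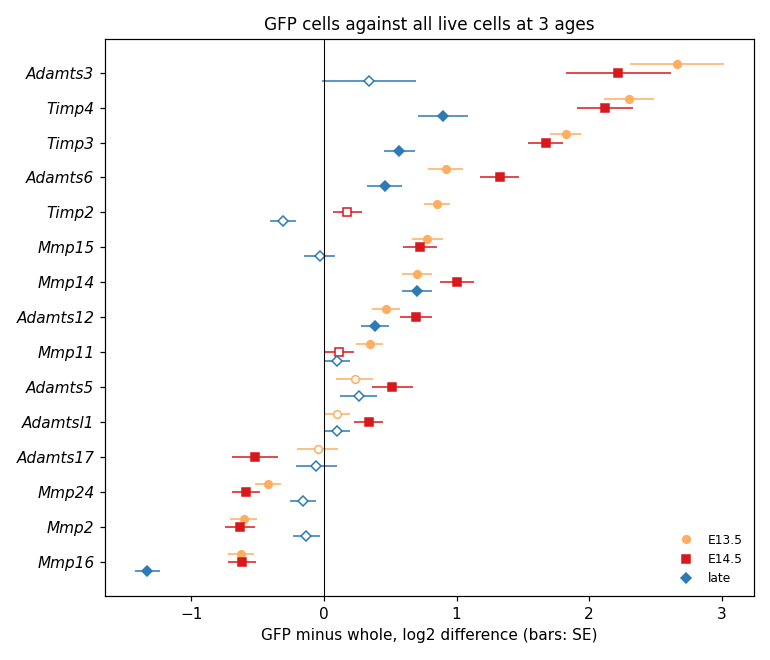
Differences between GFP cells and all live cells (x axis, log2, GFP minus whole, bars are limma's standard errors) for the 15 genes called at 1 or more ages (y axis), with each age marked and filled markers where the gene was called. Adamts3 and Timp4 lay farthest to the right at E13.5, and Mmp16 farthest to the left at the late age.

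Among the inhibitors, Timp3 and Timp4 were enriched in GFP cells throughout. Timp3, which stays bound to the matrix and also inhibits several ADAM and ADAMTS proteases, lay at 11.05, 11.24 and 11.001 in GFP cells and 9.14, 9.56 and 9.13 in whole at E13.5. At E14.5 it read 11.10 and 11.16 in GFP cells and 9.31, 9.63 and 9.44 in whole. Late GFP arrays read 11.40, 11.11 and 11.35 and late whole arrays 10.67, 10.67 and 10.83. The sorts did not overlap at any age, but whole moved up towards a nearly constant GFP level. The difference was 1.82 ± 0.12 at E13.5 (adjusted p = 1.83e-08, limma), 1.67 ± 0.13 at E14.5 (adjusted p = 1.59e-07) and 0.57 ± 0.12 late (adjusted p = 0.00482). Between E13.5 and the late age Timp3 rose by 1.45 ± 0.12 in whole (adjusted p = 1.39e-07), against 0.19 ± 0.12 in GFP cells (adjusted p = 0.311, 95% interval -0.06 to 0.44).

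Timp4, an inhibitor with a narrower tissue range than the others, climbed in both sorts. At E13.5 it lay at 9.998, 9.997 and 10.02 in GFP cells and 7.64, 8.07 and 7.40 in whole. At E14.5 the GFP arrays read 10.84 and 10.76 and whole 8.17, 9.19 and 8.68. Late values were 11.80, 11.64 and 11.79 in GFP cells and 10.94, 10.92 and 10.68 in whole. Each age lay above the one before in the GFP cells, with no overlap, and GFP cells lay above whole throughout. The difference between the sorts was 2.30 ± 0.19 (adjusted p = 2.24e-07, limma), 2.12 ± 0.21 (adjusted p = 1.61e-06) and 0.90 ± 0.19 (adjusted p = 0.00538). Without the E18.5 arrays the late difference was 0.79 with adjusted p = 0.0599. Within GFP cells Timp4 rose 3.34-fold between E13.5 and the late age (1.74 ± 0.19, adjusted p = 6.42e-06), and within whole 8.83-fold (3.14 ± 0.19, adjusted p = 4.83e-09). The GFP step from E14.5 to late was 0.94 ± 0.21 (adjusted p = 0.0124), and it missed the threshold without either E14.5 GFP array (adjusted p = 0.0757 and 0.112). The step before it was 0.80 ± 0.21 (adjusted p = 0.0829), and it passed with only these groups fitted (adjusted p = 0.00699) and without dim genes (adjusted p = 0.0494).

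Timp2, the partner of Mmp14 in the activation of pro-Mmp2, moved in opposite directions in the sorts. It lay at 8.92, 9.06 and 8.98 in GFP cells and 8.07, 8.08 and 8.26 in whole at E13.5, a gap of 0.85 ± 0.10 (adjusted p = 7.39e-06, limma). At E14.5 GFP cells had 8.93 and 8.81 and whole 8.62, 8.72 and 8.75 (0.18 ± 0.11, adjusted p = 0.324). Late, GFP cells had 8.53, 8.48 and 8.47, all under the whole values of 8.56, 8.85 and 9.01. That late difference was -0.31 ± 0.10 with adjusted p = 0.0567. It passed after quantile normalization (-0.34, adjusted p = 0.0341), without dim genes (adjusted p = 0.0378) and without whole replicate 1 (-0.43, adjusted p = 0.00534). Between E13.5 and the late age Timp2 fell in GFP cells (-0.49 ± 0.10, adjusted p = 0.00191) and rose in whole (0.67 ± 0.10, adjusted p = 8.15e-05). The call of a fall between E14.5 and late in GFP cells (-0.38 ± 0.11, adjusted p = 0.0493) ended without any one of the 5 GFP arrays of those ages (adjusted p from 0.0736 to 0.303). That call also ended after quantile normalization (adjusted p = 0.0753), with only these groups fitted (adjusted p = 0.0949) and without the E18.5 arrays (adjusted p = 0.0558).

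Timp1, an inducible inhibitor, was dim, at 6.19 to 7.02 over all arrays, and the sorts overlapped at each age. Its differences were -0.28 ± 0.15 at E13.5 (adjusted p = 0.243), 0.07 ± 0.17 at E14.5 (adjusted p = 0.833) and 0.10 ± 0.15 late (adjusted p = 0.767, limma). Without whole replicate 3 the E13.5 value was -0.46 with adjusted p = 0.0402.

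**Figure D2:**
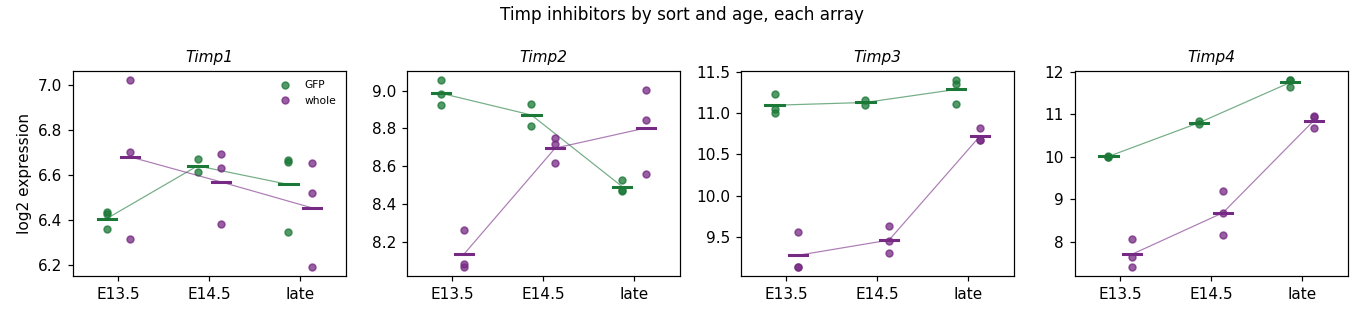
Log2 expression (y axis, a separate scale in each panel) of the 4 Timp genes by age (x axis), with a point for each array and a bar for each group mean, joined by lines, GFP cells in green and all live cells in purple. Timp3 in whole approached the GFP level, Timp4 rose in both sorts, and Timp2 crossed over.

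The promoters of Timp3 and Timp4 are shown because these inhibitors were both higher in GFP cells at every age and differ in base composition. Each is the 250 bases before the start of the gene in RefSeq (build GRCm38.p6), written in the sense of transcription. Timp3 lies at chr10:86300162-86300411, plus strand, and Timp4 at chr6:115252206-115252455, minus strand. Capitals mark matches on either strand to 3 motifs, the GC box (GGGCGG), the AP-1 site (TGANTCA) and the TATA box (TATAAA).
Timp3: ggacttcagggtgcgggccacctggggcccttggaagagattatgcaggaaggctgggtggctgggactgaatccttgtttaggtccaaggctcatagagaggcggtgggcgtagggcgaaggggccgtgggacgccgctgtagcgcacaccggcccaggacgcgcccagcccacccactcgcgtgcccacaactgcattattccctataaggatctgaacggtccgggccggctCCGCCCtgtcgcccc
Timp4: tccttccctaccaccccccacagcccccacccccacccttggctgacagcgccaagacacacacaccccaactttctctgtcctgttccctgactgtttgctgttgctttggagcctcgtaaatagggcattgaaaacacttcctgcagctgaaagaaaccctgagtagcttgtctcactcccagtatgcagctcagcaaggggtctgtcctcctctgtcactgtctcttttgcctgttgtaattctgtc
The Timp3 window holds 18 CpG dinucleotides and 1 GC box, and the Timp4 window 2 CpG and no match to any of the 3 motifs. Over 32851 promoters of the same length the median was 6 CpG, and 32.7% held a GC box, 6.75% an AP-1 site and 12.4% a TATA box.

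Among the secreted proteases, Adamts3 had the largest early difference between the sorts. It removes the amino-terminal propeptide of procollagens, and in mouse it also cleaves reelin and takes part in the activation of Vegfc. At E13.5 it lay at 9.33, 9.44 and 8.67 in GFP cells and 6.19, 7.11 and 6.15 in whole. At E14.5 GFP cells had 9.60 and 9.26 and whole 6.51, 7.88 and 7.24. By the late age GFP cells had 7.63, 7.36 and 6.60 and whole 6.83, 7.37 and 6.36. The sorts were thus far apart at both early ages and overlapped late. The difference was 2.66 ± 0.35 at E13.5 (6.33-fold, adjusted p = 3.47e-05, limma), 2.22 ± 0.40 at E14.5 (adjusted p = 0.000539) and 0.34 ± 0.35 late (adjusted p = 0.652). In the GFP cells it fell by 1.95 on the log2 scale between E13.5 and the late age (SE 0.35, adjusted p = 0.000951), and the step between E14.5 and late was -2.23 ± 0.40 (adjusted p = 0.00198). Its arrays scattered, with an SD within groups of 0.24 to 0.69. Its close relatives Adamts2 and Adamts14, which process the same kind of propeptide, were called in no comparison, at 7.73 to 8.01 and 7.60 to 7.92.

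Adamts3 has a CpG-rich promoter, at chr5:89883335-89883584, minus strand, shown with the same capitals because this gene had the largest difference between GFP cells and whole among the 51.
Adamts3: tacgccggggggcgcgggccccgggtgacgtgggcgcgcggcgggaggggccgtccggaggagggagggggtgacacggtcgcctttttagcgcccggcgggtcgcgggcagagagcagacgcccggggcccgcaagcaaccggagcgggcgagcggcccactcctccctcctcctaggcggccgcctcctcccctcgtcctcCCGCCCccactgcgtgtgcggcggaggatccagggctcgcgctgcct
It holds 35 CpG and 1 GC box in 250 bases that are 78.0% G or C.

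Adamts6 and Adamts12 were enriched in GFP cells throughout by smaller amounts. Adamts6, a relative of the fibrillin-binding Adamts10, read 8.25, 8.14 and 8.02 in GFP cells and 7.33, 7.32 and 7.01 in whole at E13.5. Late it read 7.90, 7.87 and 8.15 in GFP cells and 7.42, 7.58 and 7.54 in whole, so the sorts stayed apart with a narrower gap. The differences were 0.92 ± 0.13 (adjusted p = 7.23e-05, limma), 1.33 ± 0.15 (adjusted p = 4.4e-06) and 0.46 ± 0.13 (adjusted p = 0.0357). The late one missed the threshold without the E18.5 arrays (0.39, adjusted p = 0.169), and also when GFP replicate 1 or 3 or any one whole array was left out (adjusted p from 0.0521 to 0.117). Adamts12, which cleaves cartilage oligomeric matrix protein, differed by 0.47 ± 0.11 (adjusted p = 0.00494), 0.70 ± 0.12 (adjusted p = 0.000432) and 0.38 ± 0.11 (adjusted p = 0.0332). Its late arrays read 8.70, 8.86 and 8.68 in GFP cells and 8.36, 8.36 and 8.37 in whole. That late call ended without the E18.5 arrays (adjusted p = 0.0753), and also when GFP replicate 1 or 2 or any one whole array was left out (adjusted p from 0.0631 to 0.132). With only these groups fitted it ended too (adjusted p = 0.0523). Adamts12 rose with age in GFP cells by 0.36 ± 0.11 (adjusted p = 0.0307), a call that ended under median shifting (adjusted p = 0.062), without the E18.5 arrays (adjusted p = 0.0502), and without any E13.5 GFP array or late GFP replicate 2 (adjusted p from 0.0565 to 0.116).

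The proteases that cut aggrecan, versican and brevican include Adamts1 and Adamts5, which followed age. Adamts5 read 7.63, 7.65 and 7.78 in GFP cells at E13.5, 8.06 and 8.15 at E14.5 and 8.62, 8.30 and 8.63 late, with no overlap between these ages. It rose by 0.83 ± 0.14 in GFP cells (adjusted p = 0.000464, limma) and by 0.80 ± 0.14 in whole (adjusted p = 0.000415). Against whole it was called at E14.5, where whole read 7.76, 7.50 and 7.51. Adamts1, an inducible member of that group, rose by 1.51 ± 0.26 in whole (adjusted p = 0.000384), from 7.40, 7.17 and 7.94 to 8.74, 8.74 and 9.57. In GFP cells it rose by 0.90 ± 0.26 (adjusted p = 0.0259), from 7.79, 7.81 and 7.78 to 9.39, 8.42 and 8.26. Late GFP replicate 1 stood highest, and without it the change was 0.55 with adjusted p = 0.121. It also missed the threshold without any one E13.5 GFP array (adjusted p from 0.0645 to 0.0694) and with only these groups fitted (adjusted p = 0.0553). Adamts4, Adamts8, Adamts9, Adamts15 and Adamts20, counted with the same group, were called in no comparison. Of these Adamts9 varied most, with group means spanning 0.91 log2, and its arrays scattered within groups, as in whole at E14.5 (6.58, 5.997 and 7.31).

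The remaining calls of these families were small. Adamtsl1, a protein without protease domain, read 8.43, 8.47 and 8.18 in GFP cells at E13.5 and 7.98, 8.22 and 7.91 late. It fell by 0.32 in GFP cells (SE 0.10, adjusted p = 0.0301, limma) and was also called lower with age in whole. The GFP call ended when GFP replicate 1 or 2 of E13.5 or 1 or 3 of the late age was left out (adjusted p from 0.0863 to 0.13), and without the E18.5 arrays (adjusted p = 0.125). Adamtsl5, another such protein, rose in GFP cells from 7.56, 7.74 and 7.81 to 7.98, 8.04 and 8.04 (0.31 ± 0.09, adjusted p = 0.0173). That call ended without GFP E13.5 replicate 1 or late GFP replicate 2 or 3 (adjusted p from 0.0501 to 0.102) and without the E18.5 arrays (adjusted p = 0.053). Adamts16 rose in whole by 0.31 ± 0.08 (adjusted p = 0.00985), from 7.91, 7.91 and 7.91 to 8.29, 8.27 and 8.08. Adamts17 was lower in GFP cells at E14.5 (-0.52 ± 0.17, adjusted p = 0.0456), at 7.19 and 7.62 against 7.99, 7.91 and 7.88. Without GFP replicate 1 it was -0.31 with adjusted p = 0.431. It also missed the threshold without any whole array (adjusted p from 0.0789 to 0.113) and after median shifting or quantile normalization (adjusted p = 0.0667 and 0.0716).

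**Figure D3:**
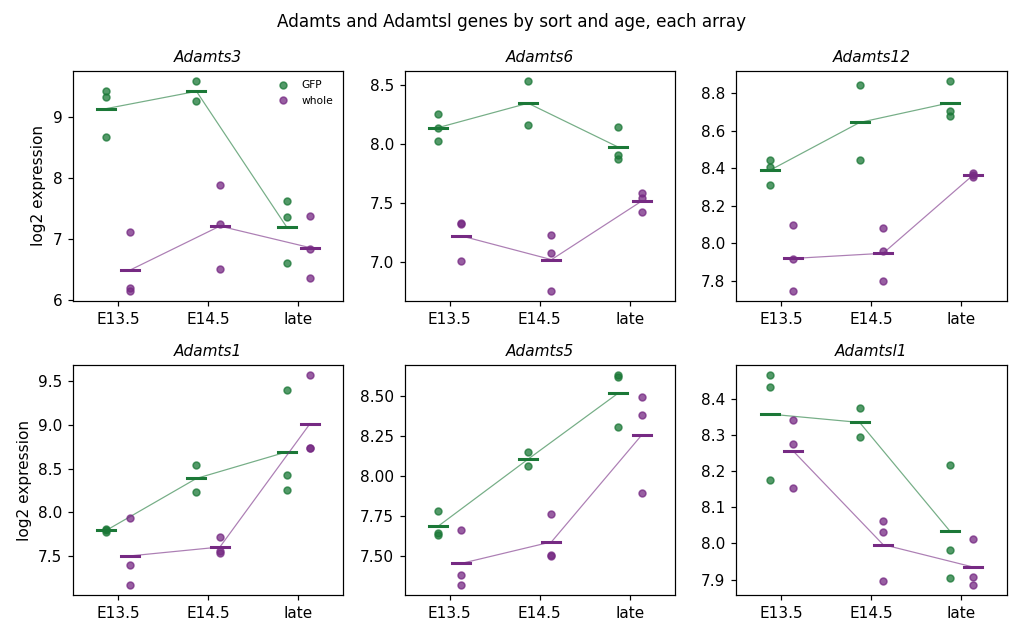
Log2 expression (y axis, a separate scale in each panel) of Adamts genes by age (x axis), with a point for each array and a bar for each group mean, joined by lines, GFP cells in green and all live cells in purple. Adamts3 was high in GFP cells at E13.5 and E14.5 and joined whole at the late age, and Adamts1 and Adamts5 rose with age in both sorts.

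Of the membrane-bound metalloproteinases, Mmp14 and Mmp15 were called higher in GFP cells at 1 or more ages and Mmp16 and Mmp24 lower. Mmp17, Mmp23 and Mmp25, also membrane-bound, were dim and called in no comparison, at 7.22 to 7.70, 7.53 to 7.86 and 7.22 to 7.64. Mmp14, the activator of pro-Mmp2, lay at 8.92, 9.05 and 9.20 in GFP cells and 8.32, 8.14 and 8.60 in whole at E13.5. At E14.5 it read 9.27 and 9.33 against 8.18, 8.31 and 8.40, and late 9.64, 9.76 and 9.68 against 9.03, 9.14 and 8.81. GFP cells were above whole at each age, and both sorts rose. The differences were 0.70 ± 0.11 (adjusted p = 0.000232, limma), 1.002 ± 0.13 (adjusted p = 1.79e-05) and 0.70 ± 0.11 (adjusted p = 0.000556). Between E13.5 and late it rose by 0.64 ± 0.11 in GFP cells (adjusted p = 0.000802) and by 0.64 ± 0.11 in whole (adjusted p = 0.000513). The change of its enrichment with age had a 95% interval of -0.34 to 0.34.

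Mmp15, also anchored by a transmembrane segment, began like Mmp14 and ended differently. At E13.5 it lay at 9.10, 8.98 and 8.92 in GFP cells and 8.30, 8.14 and 8.22 in whole (0.78 ± 0.12, adjusted p = 0.000106, limma). At E14.5 the gap was 0.72 ± 0.13 (adjusted p = 0.000556). Late the sorts overlapped, with GFP values of 8.89, 8.97 and 8.58 and whole values of 8.72, 8.78 and 9.05 (difference -0.03, adjusted p = 0.913). Whole had risen by 0.63 ± 0.12 (adjusted p = 0.000663), against -0.18 in GFP cells (adjusted p = 0.329). Mmp11, a secreted enzyme that furin activates inside the cell, was enriched in GFP cells at E13.5, with 8.10, 7.96 and 8.39 against 7.83, 7.71 and 7.89 (0.34 ± 0.10, adjusted p = 0.0227). That call ended without GFP replicate 3 (0.22, adjusted p = 0.13). It ended too when whole replicate 1 or 2 was left out (adjusted p = 0.0544 and 0.0912).

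Mmp16 was the tethered enzyme that GFP cells held less of at every age. It lay at 9.04, 9.18 and 9.06 in GFP cells and 9.72, 9.64 and 9.79 in whole at E13.5. At E14.5 it read 9.26 and 9.43 against 10.03, 9.86 and 9.99, and late 9.32, 9.04 and 9.18 against 10.41, 10.43 and 10.69. The GFP level was nearly flat over the ages while whole climbed. The differences were -0.63 ± 0.10 (adjusted p = 0.000134, limma), -0.62 ± 0.11 (adjusted p = 0.0004) and -1.33 ± 0.10 (adjusted p = 1.27e-07). Whole rose by 0.79 ± 0.10 (adjusted p = 9.7e-06), against 0.09 in GFP cells (adjusted p = 0.596). Lists of 4 other cell types rose in whole too. Neuronal, meningeal fibroblast and erythroid lists did not, with 8, 4 and 2 of 8 genes called lower there and 0, 1 and 0 higher. The mean log2 level over 8 oligodendrocyte lineage genes was 8.02 to 8.06 in whole at E13.5 and 9.25 to 9.65 late, with 7 of 8 called higher, and 7.98 to 8.18 in late GFP cells. That of 8 microglial genes was 8.45 to 8.58 in whole at E13.5 and 9.82 to 10.75 late, with 8 of 8 called higher, and 7.53 to 7.66 in late GFP cells. Over 8 endothelial genes it was 7.31 to 7.33 and 8.16 to 8.23 in whole, with 7 of 8 called higher, and 7.15 to 7.18 in late GFP cells. Over 8 mural genes it was 8.10 to 8.18 and 8.94 to 9.45, with 6 of 8 called higher, and 7.78 to 7.88 in late GFP cells. At E13.5 the oligodendrocyte, microglial, endothelial and mural lists had 1, 7, 2 and 2 of 8 genes lower in GFP cells. They had 1, 0, 0 and 2 higher. The same 4 lists stand beside the rises of Timp3, Timp4, Timp2, Adamts1, Adamts5, Mmp14 and Mmp15 in whole. So does the astrocyte list, with 9 of 9 genes called higher in whole between E13.5 and late. Of 7 radial glia genes 3 were called higher and 1 lower there. In GFP cells against whole 6, 6 and 3 of those 7 were higher at the successive ages, and 0 were lower. The part of all these lists in any of these results was not tested.

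Mmp2 and Mmp24 were lower in GFP cells early on. Mmp2, the secreted gelatinase that Mmp14 activates, lay at 7.93, 8.03 and 7.90 in GFP cells and 8.65, 8.34 and 8.68 in whole at E13.5. At E14.5 GFP cells had 7.89 and 7.94 and whole 8.61, 8.38 and 8.66, and late the sorts overlapped, with 7.82, 7.96 and 7.91 and 7.91, 8.02 and 8.18. The gap was -0.60 ± 0.10 (adjusted p = 0.000348, limma) and -0.63 ± 0.11 (adjusted p = 0.000557) at the early ages and -0.14 late (adjusted p = 0.505). Whole fell by 0.52 between E13.5 and late (SE 0.10, adjusted p = 0.00112), and GFP cells were not called. The meningeal fibroblast list also fell in whole, but its mean stayed above that of GFP cells late. Its mean over 8 genes was 8.43 to 8.50 in whole and 7.67 to 7.77 in GFP cells at E13.5, where 7 of 8 were lower in GFP cells and 1 higher. In whole it was 8.15 to 8.34 late, with 4 of 8 lower and 1 higher than at E13.5, and in late GFP cells 7.64 to 7.75. Its part in the Mmp2 result was not tested.

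Mmp24, a tethered enzyme known from neurons, read 7.63, 7.62 and 7.61 in GFP cells and 7.98, 8.08 and 8.07 in whole at E13.5, and 7.72 and 7.44 against 8.11, 8.20 and 8.17 at E14.5. It was called lower at both ages, at E14.5 by -0.59 ± 0.11 (adjusted p = 0.000672, limma). Late, GFP cells had 7.68, 7.39 and 7.26 and whole 7.57, 7.59 and 7.64, which overlapped, and whole had fallen by 0.44 (SE 0.10, adjusted p = 0.00261). The mean over 8 neuronal genes was 10.88 to 10.93 in whole at E13.5 and 9.43 to 9.74 late, with 8 of 8 called lower. In GFP cells it was 9.47 to 9.62 and 7.98 to 8.11. Its part in the Mmp24 result was not tested.

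**Figure D4:**
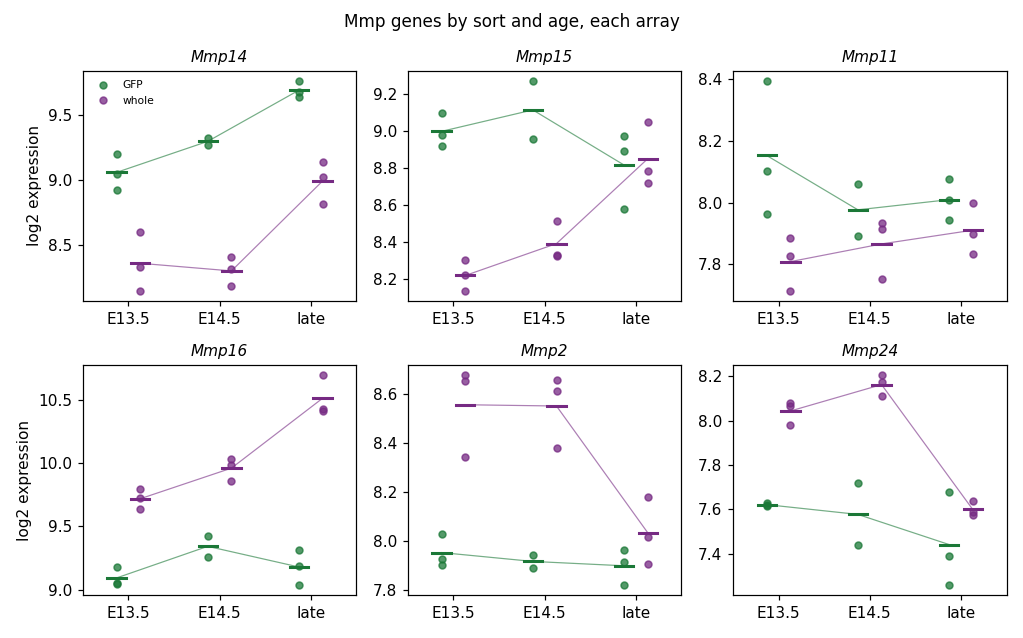
Log2 expression (y axis, a separate scale in each panel) of Mmp genes by age (x axis), with a point for each array and a bar for each group mean, joined by lines, GFP cells in green and all live cells in purple. Mmp14 was above whole in GFP cells at each age, Mmp16 below it, and the sorts overlapped at the late age for Mmp15, Mmp2 and Mmp24.

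Promoters of tethered enzymes that were higher and lower in GFP cells early on are set beside each other. Mmp16, lower at every age, had no promoter entry, so Mmp24 alone stands for the lower side. Mmp14 (chr14:54431348-54431597, plus strand) and Mmp15 (chr8:95352046-95352295, plus strand) were higher in GFP cells early on, and Mmp24 (chr2:155775092-155775341, plus strand) lower. Capitals mark the same motifs.
Mmp14: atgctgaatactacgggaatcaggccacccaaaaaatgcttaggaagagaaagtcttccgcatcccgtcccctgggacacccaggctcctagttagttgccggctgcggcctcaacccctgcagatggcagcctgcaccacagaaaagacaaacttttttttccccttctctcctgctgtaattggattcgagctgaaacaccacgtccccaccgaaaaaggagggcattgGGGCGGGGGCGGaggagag
Mmp15: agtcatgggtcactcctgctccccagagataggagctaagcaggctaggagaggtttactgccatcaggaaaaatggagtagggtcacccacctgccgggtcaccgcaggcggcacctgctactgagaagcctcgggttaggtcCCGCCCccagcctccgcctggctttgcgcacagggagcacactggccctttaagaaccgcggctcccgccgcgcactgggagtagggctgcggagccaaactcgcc
Mmp24: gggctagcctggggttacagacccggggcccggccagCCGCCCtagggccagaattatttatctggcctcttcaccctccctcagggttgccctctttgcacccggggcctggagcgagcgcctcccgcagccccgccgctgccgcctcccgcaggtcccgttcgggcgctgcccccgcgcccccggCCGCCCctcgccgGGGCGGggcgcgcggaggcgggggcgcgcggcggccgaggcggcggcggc
Each holds GC boxes, 2 adjoining ones in Mmp14, 1 in Mmp15 and 3 in Mmp24, and none holds an AP-1 site or TATA box. The CpG counts were 10, 14 and 33, so these 3 genes, whichever way they differed, had GC boxes and more CpG than the median promoter. Timp4, also called, had neither.

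Of the Mmp genes on mouse chromosome 9, 10 had a promoter entry, and none of these 10 was called in any comparison (0 in limma, and 0 to 2 of 10 per comparison at an unadjusted p below 0.05). Of all genes 39.3% were called in at least 1. These 10 are the collagenases Mmp1a, Mmp1b, Mmp8 and Mmp13, the stromelysins Mmp3 and Mmp10, the macrophage elastase Mmp12, the matrilysin Mmp7, the enamel protease Mmp20 and Mmp27. All 10 were dim, and the share called among all dim genes was not counted. Mmp13 ranged from 6.38 to 6.89 over the 17 arrays and Mmp3 from 6.61 to 7.12, with GFP cells and whole overlapping at each age. Group means of these 10 genes spanned 0.11 log2 for Mmp13 to 0.34 for Mmp8. The gelatinase Mmp9 lay at 6.91 to 7.55 and was not called either. Background was not measured here, so a dim probe set does not show that a transcript was absent.

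The promoters of Mmp13 (chr9:7272264-7272513, plus strand) and Mmp3 (chr9:7445572-7445821, plus strand) are shown because they carry motifs that those above lack.
Mmp13: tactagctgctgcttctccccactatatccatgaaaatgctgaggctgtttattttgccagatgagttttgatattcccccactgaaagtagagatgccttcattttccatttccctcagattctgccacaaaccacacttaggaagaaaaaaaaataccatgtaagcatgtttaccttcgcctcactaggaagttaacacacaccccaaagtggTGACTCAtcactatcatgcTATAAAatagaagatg
Mmp3: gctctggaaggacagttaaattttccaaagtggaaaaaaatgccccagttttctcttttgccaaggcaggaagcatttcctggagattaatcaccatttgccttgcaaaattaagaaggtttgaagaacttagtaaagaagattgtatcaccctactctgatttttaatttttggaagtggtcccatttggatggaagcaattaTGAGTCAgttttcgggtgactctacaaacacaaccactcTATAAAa
Each has an AP-1 site, starting 35 and 46 bases before the start, and a match to the TATA box, starting 16 and 7 bases before it, with 1 CpG apiece. Over all promoters TATAAA most often began at base 221 (plus strand) or 222 (minus strand) of the window, with 250 bases before the start. Both matches thus lie nearer the annotated start than is usual for a TATA box. Promoters were found for 36 of the 51 genes. An AP-1 site was found in 7 of the 24 not called and 0 of the 12 called, and all 7 lie on chromosome 9. A GC box was found in 9 of the 12 called and 11 of the 24 not called. The 10 on chromosome 9 are among those 24 and hold 0, so all 11 lie on other chromosomes. All these motif counts are letter matches in a short window, and neighbouring genes are not independent.

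From E13.5 to the late age, GFP cells had 6 of the 51 genes higher (7.3% of all genes) and 3 lower (8.93%). Whole had 10 higher (10.2%) and 3 lower (9.98%). Between E13.5 and E14.5 no member was called in GFP cells (0 of 51 in limma, 4 at an unadjusted p below 0.05), where 0.914% of all genes were called higher and 0.591% lower. Between E14.5 and late 1 was higher (2.96%) and 2 lower (3.28%). The change of the GFP-to-whole difference between E13.5 and the late age was called for 6 members, all towards a lower ratio (2.99% of all genes called in that direction), and for 0 towards a higher one (1.6%). These were Adamts3 (-2.32 ± 0.50, adjusted p = 0.0119, limma), Timp4 (-1.40 ± 0.27, adjusted p = 0.00526), Timp3 (-1.25 ± 0.17, adjusted p = 0.000316), Timp2 (-1.16 ± 0.14, adjusted p = 0.000108), Mmp15 (-0.81 ± 0.16, adjusted p = 0.00717) and Mmp16 (-0.71 ± 0.13, adjusted p = 0.00496). They differed in which sort moved. Adamts3 fell in GFP cells, Timp3, Mmp15 and Mmp16 rose in whole and were not called in GFP cells, Timp4 rose in both sorts, and Timp2 moved in opposite directions. Astrocyte markers moved in whole too, where the mean over the 9 genes was 9.15 to 9.20 at E13.5 and 10.93 to 11.03 late, against 10.31 to 10.37 and 11.69 to 11.75 in GFP cells. Their part in these changes was not tested.

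**Figure D5:**
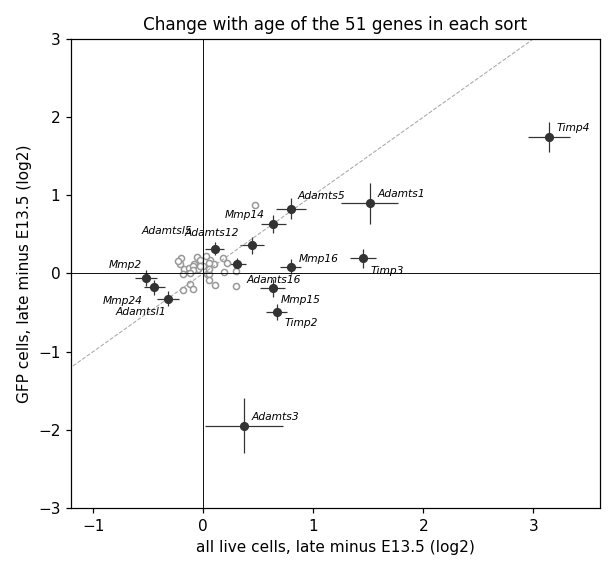
Log2 difference of the late age minus E13.5 in all live cells (x axis) and in GFP cells (y axis) for the 51 genes, with named filled points and standard errors for genes called in either sort, open points for the others and a dashed line at equal change. Timp4 rose in both sorts, Timp3 and Mmp16 in whole, and Adamts3 fell in GFP cells.

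The authors' coexpression table gave 8 of the 51 genes (15.7%) a module at the stricter threshold, against 5.48% of all genes listed, and 17 (33.3%) at the looser one, against 36.8%. A module score (kME) is the correlation of a gene with the profile of a module over these same arrays, so it restates the levels above. Timp3 (0.975), Mmp14 (0.93) and Adamts12 (0.922) shared the turquoise module. Timp4 (0.948) was in the yellow, Adamts3 (0.937) in the red and Mmp16 (0.931) in the green module. Mmp2 (0.933) and Mmp24 (0.952) shared the blue one. In the authors' deposited table for E13.5, 9 members were listed, with folds from 6.33 for Adamts3 down to 0.648 for Mmp16. The authors' deposited table for the late age listed Mmp14 (1.63-fold) and Mmp16 (0.397-fold), and the authors' deposited table for E14.5 listed Mmp14 alone (1.58-fold).

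Related proteolysis genes were counted in the same fits, where 11.1%, 10.3% and 4.6% of all genes were higher and 8.01%, 8.22% and 4.68% lower at the successive ages. For lists of 8 to 16 genes, a count of 1 is near these shares. Of 11 cell surface ADAM proteases 2 were higher and 4 lower in the GFP sort at the first age, 3 and 3 at E14.5, and 0 and 4 late (median differences -0.13, -0.08 and -0.04). Adam17, the sheddase that Timp3 inhibits, differed by 0.87 ± 0.11 at E13.5 (adjusted p = 1.48e-05, limma) and 1.03 ± 0.12 at E14.5 (adjusted p = 7e-06). Adam23, a neuronal surface protein without protease activity, was lower, by -0.94 ± 0.12, -1.48 ± 0.14 and -0.997 ± 0.12 at the successive ages. Of 13 genes of the plasminogen and serine protease system 3 were higher and 2 lower in the GFP sort at the first age, 2 and 2 at E14.5, and 2 and 1 late (median differences 0.01, -0.03 and 0.02). They included the plasminogen activator Plat (1.55 ± 0.12, 1.66 ± 0.13 and 0.82 ± 0.12) and the neuronal inhibitor Serpini1 (-1.30 ± 0.12, -1.91 ± 0.14 and -1.24 ± 0.12). The protease inhibitor Serpine2 was higher by 1.88 ± 0.10 and 1.58 ± 0.11 at the early ages. The secreted serine protease Htra1 rose in GFP cells by 2.39 ± 0.28 between E13.5 and the late age (adjusted p = 1.11e-05).

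Of 8 procollagen processing genes 1 were higher and 2 lower in the GFP sort at the first age, 2 and 1 at E14.5, and 1 and 0 late (median differences -0.07, -0.07 and 0.00), with the collagen chaperone Serpinh1 higher each time (0.58 ± 0.11, 0.76 ± 0.12 and 0.35 ± 0.11). Of 14 activators, other inhibitors and clearance genes 5 were higher and 1 lower in the GFP sort at the first age, 4 and 0 at E14.5, and 3 and 0 late (median differences 0.01, 0.03 and 0.11). The cysteine protease inhibitor Cst3 was higher by 1.01 ± 0.10, 0.89 ± 0.11 and 0.41 ± 0.10, and the membrane-anchored Mmp inhibitor Reck was lower at E13.5 (-0.46 ± 0.09, adjusted p = 0.00123). Of 16 known substrates 4 were higher and 5 lower in the GFP sort at the first age, 6 and 1 at E14.5, and 3 and 1 late (median differences 0.02, 0.06 and 0.02). Bcan, the brevican gene, was higher by 1.11 ± 0.09, 1.45 ± 0.10 and 0.54 ± 0.09, and Ncan, the neurocan gene, by 0.47 ± 0.09, 0.99 ± 0.10 and 0.74 ± 0.09. Within GFP cells 6 substrates rose (7.3% of all genes) and 2 fell (8.93%) between E13.5 and the late age. Among those that rose were Tnc (2.84 ± 0.19, adjusted p = 2.97e-08, limma) and Bcan (1.47 ± 0.09, adjusted p = 1.08e-08). Dcn was among those that fell (-1.40 ± 0.15, adjusted p = 4.22e-06).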

How the data were processed

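Values are the authors' deposited log2 expression per probe set, for 35556 probe sets. Per the submitters' processing notes oligo, RMA and limma were used, with build mm9, and no tool version is stated. The authors' deposited tables also hold a linear fold (ratio of GFP over whole), p-values and adjusted p-values, and a module score (kME) of each gene.

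The value table numbers its probe sets. They were named by matching the deposited kME scores, which follow the linear scale, recomputed from 17 arrays: all 23890 entries matched within 1e-08, and 135 matched more than 1 probe set, none of them a member. Of 1952 probe sets named by the coexpression table and a comparison table, 1925 had the same name in both. Trailing spaces of names were removed before the symbol rule was applied (47 genes with them, 51 without). In both the E13.5 and the E14.5 comparison tables, 3 value columns could not be matched to sample labels and were not used. Where a gene had several entries (26 genes) the highest mean was taken.

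All 17 arrays entered 1 limma 3.58.1 fit in R 4.3.3 (6 group means, eBayes, 11 residual and 5.42 prior degrees of freedom), tested on simulated data, with 8 contrasts and Benjamini-Hochberg adjustment over 23861 genes. Full statistics were given, per contrast, for at most the 10 called members with the largest differences, for all Timp genes and for members called once, and for related lists at most 4 genes a contrast. Where such a member was not called in the matching contrast, its difference and adjusted p are given for comparison. The members, lists and rule were chosen with earlier results of these data known. Alternatives were median shifting, quantile normalization, no dim genes, only the groups compared, no E18.5 arrays, a replicate block, a trended spread, another probe set choice and leaving out each array. Promoters came from RefSeq (GRCm38.p6). The number of arrays limits the precision, and the labels give no batch.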

Additional observations from a re-analysis of the deposited data

Results flagged for a closer look

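The difference between GFP cells and whole changed between E13.5 and the late age for 6 members, by limma's test of that change: Adamts3 (-2.32), Timp4 (-1.40), Timp3 (-1.25), Timp2 (-1.16), Mmp15 (-0.81) and Mmp16 (-0.71, log2). No group had more than 3 arrays, so single arrays were not tested for standing apart.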

How the results depend on the processing

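For Timp2, Timp3, Timp4, Mmp15 and Mmp16 the change of enrichment with age was called under each alternative run. Adamts3 is dim, so the fit without dim genes left it out, and its change was called under each of the others. Leaving out the E18.5 arrays reduced the late count of members called against whole from 6 to 3, and that of all genes from 2215 to 1917. For GFP E14.5 against E13.5, 0 became 1 without dim genes and 3 with only the groups compared, while all genes called went from 359 to 425 and 522. Leaving out 1 array at a time, the members called numbered 11 to 13 at E13.5, 10 to 11 at E14.5 and 4 to 5 late for the sorts. All genes called then numbered 3455 to 3899, 2948 to 4199 and 1639 to 2395 (4559, 4420 and 2215 reported). Members numbered 5 to 8 for GFP late against E13.5 (9 reported, 5 without GFP E13.5 replicate 1), and all genes 2751 to 3612 (3872 reported). For GFP late against E14.5 members numbered 1 to 3 (1 without either E14.5 array), and all genes 662 to 1358 (1488 reported). For whole late against E13.5 members numbered 12 to 14, and all genes 3857 to 4425 (4818 reported). Members numbered 6 to 7 for the change of enrichment (all genes 780 to 1150, 1095 reported) and 0 for GFP E14.5 against E13.5. With the replicate block 12, 13 and 5 members were called against whole at the successive ages (all genes 4469, 4047 and 2120), the late call of Adamts6 ending (adjusted p = 0.0547). Deviations of same-numbered arrays correlated at -0.08 to 0.00 at the early ages, which gives no sign of pairing there. At the late age they correlated at -0.06, 0.12 and 0.10, and replicate 3 is the E18.5 array in both sorts, so there the number is tied to embryonic day and the block takes up that difference. Over all genes, median shifting moved the share of calls that were higher from 45.0% to 31.7% (GFP late against E13.5) and from 47.4% to 33.9% (against E14.5), and leaving out dim genes moved it from 49.6% to 60.8% (late, against whole). With only the groups compared, all genes called fell from 2215 to 1021 (late, against whole) and from 1488 to 546 (GFP late against E14.5). GFP E14.5 against E13.5 called 359 genes, 561 without the E18.5 arrays, and 102 to 210 without GFP E13.5 replicate 1 or 3 or either E14.5 GFP array; GFP late against E14.5 called 671 and 662 without those E14.5 arrays. Dim probe sets limit what 33 members can show. The causes were not tested.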

Other observations

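The folds in the authors' deposited table for E14.5 were rebuilt for 543 of its genes. All 543 came within 0.001 log2 of a mean over 3 arrays that takes in the one titled as mislabeled, and 0 came within it of the mean of both assigned GFP arrays. For Mmp14 the authors' deposited table gives 1.58-fold, and both assigned arrays give 2.003-fold. On that array Timp3 read 8.34, Timp4 7.86, Adamts3 6.93, Adamts6 6.64, Mmp14 8.26 and Mmp15 8.20, each below both assigned GFP arrays of E14.5, and Mmp16 read 10.42, above the whole arrays of that age. It has no group here and entered no comparison.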
